A study of Mus musculus with 2 samples.

Results

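The 7821 sites described here are intergenic CTCF sites that lie between 25 and 250 kb from the nearest protein-coding start. They make up 12.1% of the 64732 sites of the authors' optimal list on chromosomes 1 to 19 and X. A site was taken when the summit of its peak lay in sequence that is not repeat-masked, outside every annotated gene body, over 1000 bp from the start of any long non-coding RNA, and over 25000 but at most 250000 bp from the nearest transcription start site (TSS) of a protein-coding transcript. No signal value entered this choice. At the lower limit, a site 24995 bp from Vwf, with peak signals of 16 and 6.53 in replicates 1 and 2, stayed outside, and a site 25002 bp from Sptlc2, with 190.2 and 174, was taken. At the upper limit, a site 249956 bp from Prr32, with 14.3 and 12.6, was taken, and a site 250070 bp from Rnaseh2b, with 128 and 124, stayed outside.

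Binding was measured by chromatin immunoprecipitation with an antibody to CTCF, followed by sequencing (ChIP-seq), in lung tissue of newborn mouse, strain B6NCrl (postnatal, 0 days). The study had 1 group of 2 replicates and no second condition, and the labels give no treatment and no altered allele. The labels call both biological replicates, but they carry the same biosample and donor, and what separates them may be technical only. Lung is a mixture of epithelial, mesenchymal, endothelial and blood cells, and a peak list cannot say in which of them a site was bound. The tissue label could not be set against marker genes, since no RNA was measured here.

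CTCF is a DNA-binding protein with an array of zinc fingers, which read a long motif built around a conserved core. On chromatin it halts the cohesin ring as cohesin extrudes a loop, and it does so mainly when cohesin arrives from the side to which the motif points. Loops therefore tend to form between sites whose motifs face each other. Sites far from promoters are known as anchors of such loops, as boundaries of topological domains and as insulators between enhancers and the promoters of neighbouring genes.

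The 20 sites with the best mean rank of signal over both replicates are shown first, because they give the binding sequence at its most occupied. Their signals ran between 255.9 and 319 in replicate 1 and between 253 and 320.6 in replicate 2. They lay 27.0 to 141 kb from the nearest TSS, 14 of them within 50 kb. Of the 20 sites, 10 held an exact match to the 12-bp CTCF core within 50 bp of the summit, 7 held the core with 1 mismatch and 3 with 2 mismatches. The leading 6 are printed 5′ to 3′ on the strand of the core, with 30 bases either side and the core in capitals. Coordinates are those of mm10, and the sequence is that of NCBI RefSeq GRCm38.p6, the same assembly.
Glrx3 site, chr7:137478443-137478514, plus strand: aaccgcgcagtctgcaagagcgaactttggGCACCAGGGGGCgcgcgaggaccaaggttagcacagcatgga
Enah site, chr1:181888926-181888997, plus strand: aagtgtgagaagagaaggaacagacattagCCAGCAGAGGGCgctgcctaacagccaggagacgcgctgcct
Chrm3 site, chr13:9846978-9847049, minus strand: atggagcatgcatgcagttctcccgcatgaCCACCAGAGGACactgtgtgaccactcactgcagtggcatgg
Trim33 site, chr3:103383338-103383409, minus strand: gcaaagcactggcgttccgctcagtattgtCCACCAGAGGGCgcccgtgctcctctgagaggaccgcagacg
Slc38a4 site, chr15:96936942-96937013, minus strand: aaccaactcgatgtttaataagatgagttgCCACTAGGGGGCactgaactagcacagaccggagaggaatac
Snx19 site, chr9:30480655-30480726, plus strand: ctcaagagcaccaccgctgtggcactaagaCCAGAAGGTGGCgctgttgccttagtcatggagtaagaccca

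The site downstream of Glrx3, which encodes a glutaredoxin, was the strongest of all 7821, with peak signals of 319 and 320.6 in replicates 1 and 2. Its peak covers chr7:137478267-137478622, 40.8 kb from the TSS, and its core departs from the consensus at position 1, counted from the 5′ end of the core. The site 34.8 kb downstream of Enah, which encodes a regulator of actin filaments, had signals of 306 and 289.6 and an exact core. The site 32.0 kb downstream of Chrm3, a muscarinic acetylcholine receptor gene, had 288 and 295, and its core is mismatched at position 11. The site 41.7 kb downstream of Trim33, which encodes a ubiquitin ligase of TGF-beta signalling, had 279 and 300.0. The site 83.0 kb downstream of Slc38a4, an amino acid transporter gene, had 291 and 276, and the site 44.8 kb downstream of Snx19, a sorting nexin gene, had 292 and 274. In all 6 the replicates lay close together, but the choice by mean rank over both replicates favours such sites. A gene name here marks the nearest protein-coding TSS and says nothing of which gene a site acts on.

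Peak signal at these sites stood between that of sites closer to genes and that of sites in gene deserts. The median signal of the 25-250 kb sites was 57.1 in replicate 1 and 52.8 in replicate 2. The 7611 intergenic sites 1 to 25 kb from a TSS had medians of 82.3 and 77.4, and the 1331 intergenic sites over 250 kb away had 34.1 and 31.8. The 9590 sites inside genes at the same 25-250 kb distance had 44.0 and 40.3, and the 1759 repeat-masked intergenic sites at that distance had 27.4 and 24.3. The order of the 5 kinds of site was the same in both replicates. The middle 50% of the 25-250 kb sites ran between 21.7 and 128 in replicate 1, so each kind of site overlapped widely with the others.

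**Figure D1:**
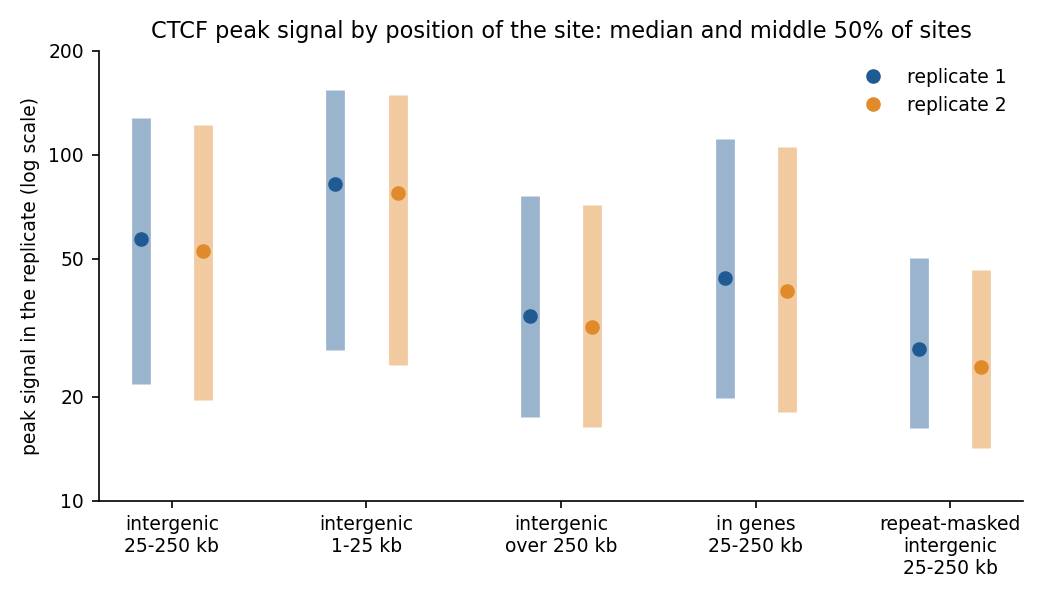
Peak signal of CTCF sites by position, on a log scale, in replicates 1 and 2. Points are medians and bars span the middle 50% of sites. The intergenic sites 25-250 kb from a TSS (medians 57.1 and 52.8) sit below those at 1-25 kb and above the other kinds in both replicates.

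The same order appeared in shares of the list. Of the intergenic 25-250 kb sites, 57.9% lay above the median signal of the whole list (95% Wilson interval 56.8% to 59.0%), against a background of 50% of all sites by construction. The 1-25 kb sites reached 66.3%, a difference of -8.39 points (95% Newcombe interval of the difference -9.91 to -6.86). The share was 12.8 points higher than the 45.1% of sites over 250 kb away (9.90 to 15.7), 5.42 points higher than the 52.5% of sites in genes (3.94 to 6.90) and 24.7 points higher than the 33.1% of repeat-masked sites (22.2 to 27.2). Taken on each replicate's own peaks, 57.6% in replicate 1 and 57.7% in replicate 2 lay above the median. All of these intervals cover counting error over sites only. Sites of 1 tissue sample are not replicates, and no test over samples was possible with 1 group.

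Nearly all sites of the list, these included, had a peak in both libraries. A peak of both replicates lay within 100 bp of the summit at 7720 of the 7821 sites, with 55 lacking a peak in replicate 1 and 58 in replicate 2. Of all 64732 sites, 777 lacked one in replicate 1 and 940 in replicate 2, and each replicate list holds 300000 peaks. A stricter measure asks for one of the 64732 highest peaks of each replicate, and 86.9% of the sites met it (86.1% to 87.6%), against 83.5% of all sites. The 1-25 kb sites reached 89.5%, a difference of -2.61 points (-3.62 to -1.59), and the sites over 250 kb away reached 83.8%, a difference of 3.02 points (0.992 to 5.22). Agreement followed signal. In the 25% of the list with the highest pooled signal, the SD of the log2 ratio of replicate 1 to replicate 2 was 0.14, and in the lowest 25% it was 0.71, taken over the sites with a peak in both. These groups hold 2487 and 1619 of the sites. Of the sites, 89.8% were also in the authors' conservative list, against 87.4% of all sites, and 142 were among the 1000 strongest sites of the list.

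Within the group, values went with distance from the gene. The sites were most dense nearest to the genes. In sequence that meets the rule there were 33.5 sites per Mb at 25-50 kb, 23.2 at 50-100 kb, 15.7 at 100-150 kb and 11.7 at 150-250 kb. The median signal in replicate 1 was 71.6, 58.5, 43.4 and 38.9 in the same 4 steps, and in replicate 2 it was 66.8, 54.7, 38.8 and 35.6. The share above the list median was 62.2%, 58.9%, 51.9% and 49.3%. Between the ends, the share was 49.3% at 150-250 kb against 62.2% at 25-50 kb, a difference of -12.9 points (-16.3 to -9.46). GC content moved with distance, with a median within 100 bp of the summit of 49.3%, 48.8%, 48.3% and 47.8%, and its part in the gradient was not tested.

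**Figure D2:**
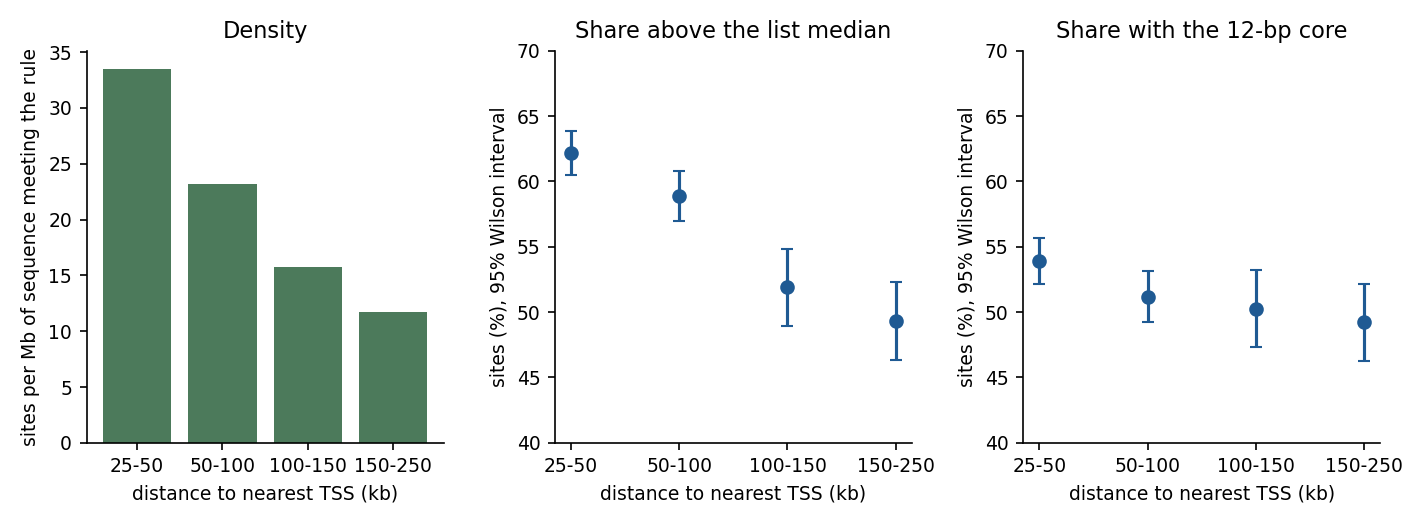
Intergenic CTCF sites by distance to the nearest protein-coding TSS. Bars give sites per Mb of sequence that meets the rule, and points give shares of sites with 95% Wilson intervals on axes that start at 40%. Density fell to 11.7 per Mb at 150-250 kb, against 33.5 at 25-50 kb, and the share above the list median to 49.3%, against 62.2%.

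Averaged over all 364.6 Mb that meets the rule, density was 21.4 sites per Mb. It was 44.4 per Mb for intergenic sequence at 1-25 kb, 5.16 per Mb beyond 250 kb, 24.7 per Mb inside genes at 25-250 kb and 7.5 per Mb in repeat-masked intergenic sequence at that distance. The median gap to the nearest other site of the list was 9644 bp at the 25-250 kb sites, against 4653 bp at the 1-25 kb sites and 45826 bp at the sites over 250 kb away. Only 7.66% had another site within 1 kb and 11.3% had none within 50 kb. The X chromosome stood apart, with 10.2 sites per Mb on 297 sites, against 18.1 (chromosome 3) to 30.2 (chromosome 11) on the 19 autosomes. This is not shown to be particular to the group. The group had 297 sites on X and 7524 on autosomes, and the other sites of the list 1200 and 55711. Density by chromosome was not taken for the other sites. The sex of the donor is not given in the labels. On X, 60.9% of the sites had a core, against 51.5% on the autosomes, a difference of 9.44 points (3.67 to 14.9). Other sites of the list differed in the same direction, 51.7% on X against 47.7% on autosomes (3.92 points, 1.06 to 6.77). The share above the list median was 57.2% on X and 57.9% on autosomes, a difference of -0.669 points (-6.46 to 4.94).

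The 12-bp CTCF core was found, with at most 1 mismatch and on either strand, within 50 bp of the summit at 4056 of the 7821 sites. That is 51.9% (50.8% to 53.0%), against 48.3% of all sites of the list. In windows of the same length placed 1000 bp to either side, 1.06% held it. The 1-25 kb sites held it at 54.0%, a difference of -2.18 points (-3.75 to -0.605). The difference from the sites over 250 kb away, at 51.8%, was 0.0197 points (-2.88 to 2.92). The share was 4.16 points higher than the 47.7% of sites in genes (2.67 to 5.66). Repeat-masked sites held it at 67.6%, a difference of -15.7 points (-18.2 to -13.3). With an exact core required, the last order turned round: 17.2% of the 25-250 kb sites and 8.75% of the repeat-masked sites held one, a difference of 8.48 points (6.85 to 9.98). Among the upper 50% of the list by signal, the differences from the 1-25 kb sites and from the sites in genes no longer excluded 0, at -0.418 points (-2.33 to 1.49) and 1.74 points (-0.184 to 3.66).

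Signal and core went together. Split into steps of 25% of the whole list by pooled signal, the highest first, the core was held by 71.2%, 58.3%, 39.5% and 26.9% of the sites. In the lowest 25%, sites over 250 kb away held it at 38.4% and repeat-masked sites at 58.6%, so the 25-250 kb sites differed by -11.5 points (-17.1 to -6.04) and -31.6 points (-36.1 to -27.0). The overall difference of -2.18 points from the 1-25 kb sites did not hold within steps of signal: it was -1.22 points (-3.60 to 1.13) in the highest step, then 3.65 (0.545 to 6.75), 2.90 (-0.586 to 6.36) and 2.18 points (-1.09 to 5.40). Against sites in genes it was -2.37 points (-4.86 to 0.110) in the highest step, then 4.39 (1.49 to 7.26), 3.19 (0.142 to 6.24) and 3.20 points (0.430 to 6.00). Split by the best match at the site, the median signal was 120.2 in replicate 1 and 114 in replicate 2 at the 1348 sites with an exact core. It was 76.5 and 71.8 at the 2708 sites with 1 mismatch, 41.2 and 38.1 at 2190 sites with 2, 24.7 and 22.0 at 1249 sites with 3, and 17.9 and 16.1 at 312 sites with 4. The windows 1000 bp away had an exact core in 0.102% and 1 mismatch in 0.959%, but a best match of 2 mismatches in 7.06% and of 3 in 29.96%. A match of 3 or more mismatches was therefore common in sequence without a summit.

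The summit of the peak sat on the core. Among the 4011 sites with 1 best strand, the median distance between the centre of the core and the summit was 5.5 bp, and 91.4% lay within 20 bp. In the strongest 25% of these sites 95.7% did, and in the weakest 25% 80.5% did.

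The exact cores varied in their letters. The commonest at the 1348 sites was CCAGCAGGTGGC, at 131 sites or 9.72% (8.25% to 11.4%), against 7.44% of the exact cores at other sites of the list, a difference of 2.28 points (0.673 to 4.08). The core CCACTAGATGGC was also more frequent, at 8.61% against 5.74% (2.86 points, 1.36 to 4.57). The core CCAGCAGAGGGC, the commonest at other sites with 15.9%, made up 8.90% here, a difference of -7.02 points (-8.69 to -5.17). The other sites include repeat-masked summits, which the rule keeps out of the group. The part of masking in these differences was not tested. Sites with CCACCAGGTGGC had the highest median signal of the common forms printed here, 155 in replicate 1 and 146 in replicate 2, over 90 sites. Sites with CCAGCAGAGGGC had medians of 109 and 103. The middle 50% of these groups overlapped, with 96.0 to 185 for the first and 42.7 to 164 for the second in replicate 1.

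Where a core had 1 mismatch, its place was uneven. Of the 2663 such cores with 1 best strand, 20.8% were mismatched at position 12, 18.8% at position 1, 18.6% at position 5, 14% at position 3 and 11.8% at position 11. Position 2 was mismatched in 8 cores, position 8 in 18, position 7 in 29 and position 10 in 48. Median signal was lowest, among positions with over 40 cores, for mismatches at position 9 (40.7 in replicate 1 and 38.7 in replicate 2, 91 cores) and position 10 (43.5 and 36.5). It was 89.6 and 86.0 for mismatches at position 1 and 83.0 and 81.2 at position 3. Departures were thus frequent at the ends of the core and at position 5, and departures at positions 9 and 10 went with weaker peaks.

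Cores with CG at positions 2 and 3 are shown because the CG dinucleotide there can be methylated, and methylation of CTCF motifs is known to weaken binding. There were 79 of them, 1.97% of the cores. Their median signal was 139.9 in replicate 1 and 142 in replicate 2, against 91.9 and 88.3 for the 3629 cores with CA there. Of the CG cores 92.4% lay above the list median, against 73.0% of the CA cores, a difference of 19.4 points (11.3 to 23.7). The search made these groups unlike. A CG core has its 1 allowed mismatch at position 3 and matches elsewhere. The CA cores include exact cores and cores mismatched at other positions. Of the 1348 exact cores, which all have CA there, 84.1% lay above the list median, with median signals of 120.2 and 114. Methylation was not measured here. The 4 strongest are printed on the strand of the core, with the core in capitals.
Chst3 site, chr10:60245199-60245270, minus strand: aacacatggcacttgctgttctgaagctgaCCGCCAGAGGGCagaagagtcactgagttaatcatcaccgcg
Meox1 site, chr11:101919785-101919856, plus strand: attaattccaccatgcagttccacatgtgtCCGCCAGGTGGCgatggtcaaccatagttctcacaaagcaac
Wsb1 site, chr11:79214097-79214168, minus strand: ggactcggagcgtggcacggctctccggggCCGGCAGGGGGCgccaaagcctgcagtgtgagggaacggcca
Cdh5 site, chr8:104028823-104028894, minus strand: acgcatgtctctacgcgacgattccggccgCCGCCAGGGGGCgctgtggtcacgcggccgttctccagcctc

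The site upstream of Chst3, a carbohydrate sulfotransferase gene, reached 257 and 252 in replicates 1 and 2. The site upstream of Meox1, a mesoderm homeobox gene, had 240.2 and 248, and the site downstream of Wsb1 had 239.9 and 243. The fourth lay 72.8 kb upstream of Cdh5, which encodes the cadherin of endothelial junctions, with 236 and 244.

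Bases outside the core, which the search did not use, carried a preference of their own. Summed over the 6 bases after the core, the information content was 1.23 bits. The first base after the core, position 13, held 0.508 bits: A followed at 48.8% of the sites, G at 40.3%, T at 5.91% and C at 5.04%. Sites with A there had a median signal of 92.5 in replicate 1 and 88.8 in replicate 2, sites with G 106 and 102, sites with T 41.0 and 36.3, and sites with C 35.3 and 36.5. Before the core, a stretch 7 to 20 bases upstream held 0.700 bits in all, with its peak at position -12, where T stood at 48.3% of the sites. Beside the core, positions 14 and 15 held 0.250 and 0.222 bits, position -3 held 0.173 bits, with T at 45.3%, and position -1 held 0.156 bits. A further preference lay at position 22, with C at 42.3% and 0.132 bits. The bases 21 to 30 before the core held 0.0454 bits in all. The strongest 25% of the sites held more information than the weakest 25% in the first and the upstream stretch, 1.79 against 0.658 bits in the 6 bases after the core and 1.22 against 0.510 bits in the upstream stretch. At the 1-25 kb sites the same 2 stretches held 1.23 and 0.756 bits.

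**Figure D3:**
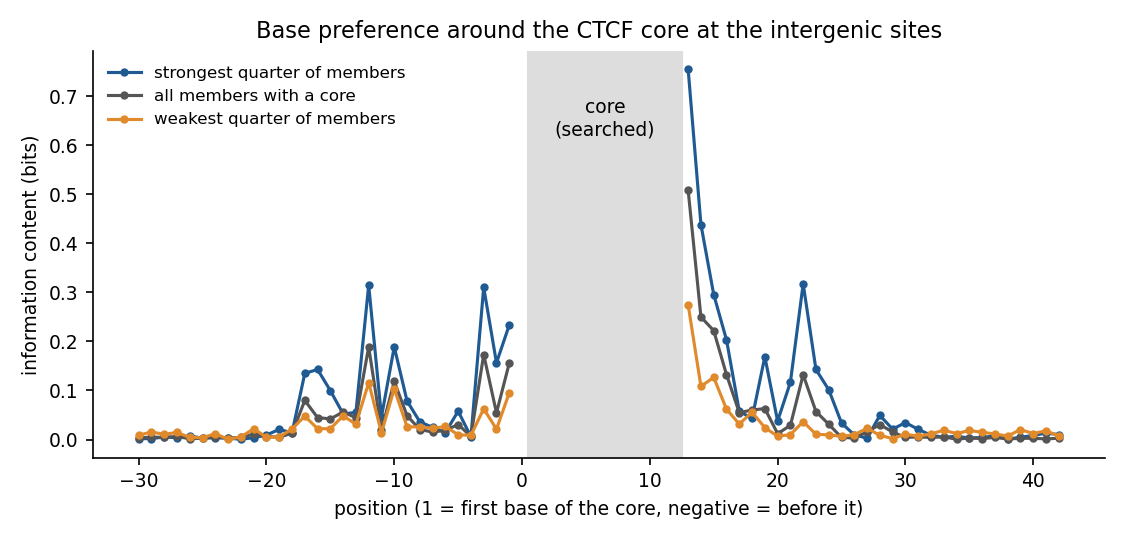
Information content in bits at each position from 30 bases before to 30 bases after the CTCF core at 4011 intergenic sites, for all of them and for the 25% of highest and the 25% of lowest signal. The grey band is the core itself, which was used in the search. Peaks at positions -12, -3, 13 and 22 stand highest in the strongest 25%.

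Some strong sites had no close match to the core. Of the 1575 sites with 3 or more mismatches at best, 456 still lay above the median signal of the list. Their best match still has most letters of the core, and the search does not tell whether a looser form of the motif is bound there. Among the strongest, 3 are printed from 50 bases before to 50 bases after the summit on the plus strand. They are in lower case throughout because the best match of each has 3 mismatches.
Emid1 site, chr11:5181986-5182086: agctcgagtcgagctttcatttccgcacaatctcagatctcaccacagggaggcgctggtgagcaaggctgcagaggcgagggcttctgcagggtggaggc
Zcchc24 site, chr14:25800334-25800434: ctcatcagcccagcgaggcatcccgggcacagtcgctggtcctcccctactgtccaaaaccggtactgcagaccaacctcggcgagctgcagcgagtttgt
Rapgef1 site, chr2:29582538-29582638: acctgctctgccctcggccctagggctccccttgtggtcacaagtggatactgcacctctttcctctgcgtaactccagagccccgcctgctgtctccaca

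The site 29.8 kb upstream of Emid1 reached 239 and 248 in replicates 1 and 2, the site 31.3 kb upstream of Zcchc24 had 233 and 232, and the site 37.1 kb upstream of Rapgef1 had 222 and 226. All 3 lay above the median of the sites with an exact core, 120.2 in replicate 1 and 114 in replicate 2.

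Short motifs of other factors were searched on both strands within 50 bp of the summit at the 3765 sites without a core, at the 4056 with one, and in the windows 1000 bp away. The NKX2-1 motif CAAGTG, read by a homeobox factor of lung epithelium, was at 7.99% of the sites without a core and at 5.89% of the distant windows, a difference of 2.10 points (1.19 to 3.08). At the sites with a core it was at 6.80% (1.19 points, 0.0298 to 2.36), at the 1-25 kb sites without a core at 6.75% (1.25 points, 0.0427 to 2.45), and at 6.65% of all sites of the list. The E-box CANNTG was at 48.2% without a core against 42.7% of the distant windows (5.48 points, 3.70 to 7.25), but at 51.9% with a core, and at 51.2% of all sites. The ETS motif CCGGAAG stood at 0.930% against 0.320% (0.610 points, 0.330 to 0.979; 1.07% of all sites), the Sp/KLF motif GGGCGGG at 1.49% against 0.633% (0.854 points, 0.488 to 1.31; 2.52% of all sites) and the TEAD motif GGAATGT at 1.86% against 1.27% (0.587 points, 0.159 to 1.10; 1.37% of all sites). The GATA motif AGATAAG was less frequent than in the windows, 0.876% against 1.30% (-0.428 points, -0.743 to -0.0386; 0.658% of all sites). For the AP-1 motif TGANTCA (3.43% against 2.92%) and the forkhead motif TGTTTAC (1.43% against 1.54%) the interval of the difference included 0, and these stood at 2.50% and 1.02% of all sites. The palindromic NFI motif was found at 0.0266% of the sites without a core, in none of the windows and at 0.00618% of all sites. The NKX2-1 motif is itself a form of the E-box, so each of its matches also counts there, and the E-box can lie within the CTCF core as CAGGTG. A match is a stretch of letters and not a bound factor.

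Neighbouring sites pointed the same way slightly more often than not. Among 3977 pairs of sites that are next to each other in the list and both belong to the group, 1077 had a core on 1 strand at both. The cores lay on the same strand in 55.1% of these pairs (52.1% to 58.0%). They faced each other in 17.7% (15.6% to 20.1%) and pointed apart in 27.2% (24.6% to 29.9%). Pairs with no site of the group, 12458 in all, were on the same strand in 52.6%, facing in 21.7% and apart in 25.6%. The facing share differed by -4.01 points (-6.30 to -1.51). The same-strand share differed by 2.41 points (-0.698 to 5.49), and the share pointing apart by 1.60 points (-1.09 to 4.44). Restricted to sites at most 100 kb from a TSS, the same-strand share was 53.6% (49.8% to 57.4%) and its interval included 50%.

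The shares differed with the gap between the pair. At gaps of at most 1 kb, 1-10 kb, 10-50 kb and over 50 kb, facing pairs made up 21.8%, 17.0%, 14.7% and 23.5%. Pairs pointing apart made up 29.1%, 27.3%, 31.3% and 19.4% in the same order. Pairs over 50 kb apart faced each other in 23.5%, against 14.7% of pairs 10 to 50 kb apart, a difference of 8.77 points (2.33 to 15.6). They pointed apart in 19.4% against 31.3%, a difference of -11.9 points (-18.6 to -4.64).

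The cores pointed away from the nearest start more often than towards it. Of the 4011 sites with a core on 1 strand, 45.7% pointed to the nearest protein-coding TSS (44.1% to 47.2%). The 1-25 kb sites did so in 48.3%, a difference of -2.67 points (-4.84 to -0.489). By step of distance within the group, nearest first, the share was 43.8%, 47.1%, 44.1% and 49.7%. Only the interval of the farthest step (45.5% to 54.0%) included an even split. Sites downstream of their nearest TSS pointed to it in 41.8% (39.6% to 44.0%), and sites upstream of theirs in 49.2% (47.0% to 51.3%), a difference of -7.39 points (-10.5 to -4.31). The interval of the upstream sites included an even split. Downstream sites can lie close to a 3′ end of the gene, from which the rule sets no distance. The part of this in the difference was not tested. Downstream sites made up 46.5% and upstream sites 53.5% of the group. The core was held by 52.4% of the downstream and 51.4% of the upstream sites, a difference of 1.10 points (-1.12 to 3.32).

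The same direction showed when each site was placed in the interval between the 2 flanking protein-coding genes. In the first 10% of the interval, counted from its left end on the chromosome, 62% of the cores pointed right, into the interval (57.5% to 66.4%). In the last 10% of the interval 34.6% did (30.3% to 39.2%), so that most there pointed left, again into the interval. Between these ends the share ran through 58.5%, 54.4%, 52.1%, 51.1%, 53.2%, 48.9%, 47.2% and 46.5%. Over all 3999 sites in an interval, 55.1% pointed inward from the nearer end (53.6% to 56.6%). In the outer 20% at either end 60.03% did, against 51.4% in the middle, a difference of 8.67 points (5.57 to 11.7). Where the nearer gene turned its 3′ end to the interval, 57.7% of the cores pointed inward, against 51.7% where it turned its 5′ end, a difference of 6.09 points (2.97 to 9.19). The rule keeps sites over 25 kb from a protein-coding TSS but sets no distance from a 3′ end. Sites can thus lie closer to a 3′ end, and the part of this in the difference was not tested. The inward share of the 1-25 kb sites was 54.5%, a difference of 0.662 points (-1.51 to 2.83), and that of the sites over 250 kb away 54.8%, a difference of 0.341 points (-3.67 to 4.40). In the outer 20% at either end, the 25-250 kb sites pointed inward in 60.03% against 55.9% of the 1-25 kb sites, a difference of 4.17 points (1.03 to 7.28). The sites over 250 kb away did so in 67.1%, a difference of -7.06 points (-14.3 to 1.00).

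**Figure D4:**
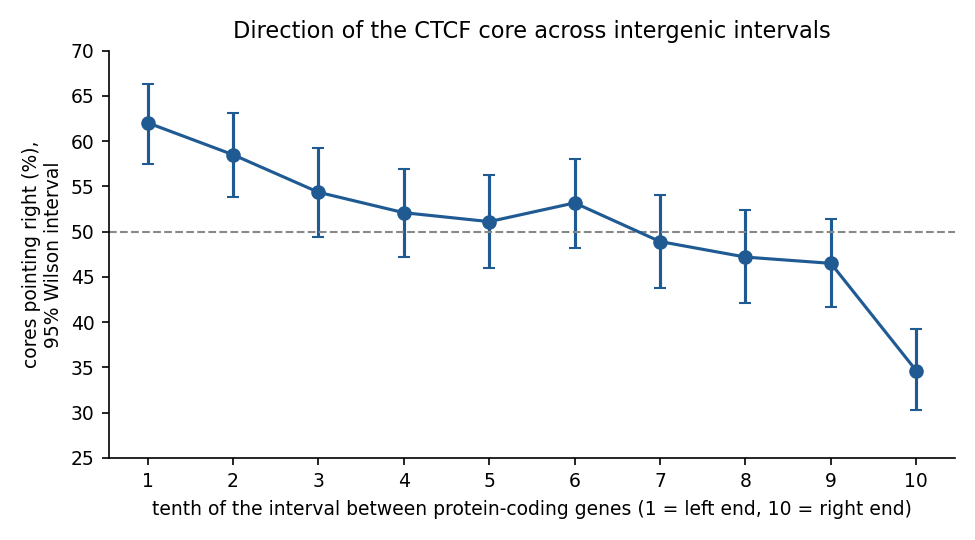
Share of CTCF cores that point right, in steps of 10% of the length of the intergenic interval, with 95% Wilson intervals. The dashed line is 50%. The share falls from end to end, at 62% in the first step and 34.6% in the last, so cores at both ends point into the interval.

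The interval between Cdh26 and Cdh4, which encode cadherins, is shown for its runs of cores on 1 strand, and was chosen among the 10 intervals with the most sites after its cores were seen. It spans chr2:178487367-179442430, or 955 kb, and held 12 of the sites, 10 of them with a core. The first 4 cores from the left lay on the plus strand and the next 5 on the minus strand, and 1 further plus-strand core followed. Among these sites, the run of plus-strand cores thus faced the run of minus-strand cores. Any other sites of the list in the interval, which the rule leaves out, were not placed in these runs. Only the last of the 5 minus-strand cores lay nearer to the right end, so the other 4, and the last plus-strand core, pointed outward from the nearer end, against the direction that was commoner over all intervals. The first 3 plus-strand sites and the last 3 minus-strand sites with a core are printed on the strand of the core.
Cdh26 site, chr2:178507550-178507621, plus strand: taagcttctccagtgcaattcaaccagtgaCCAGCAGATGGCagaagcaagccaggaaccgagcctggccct
Cdh26 site, chr2:178516625-178516696, plus strand: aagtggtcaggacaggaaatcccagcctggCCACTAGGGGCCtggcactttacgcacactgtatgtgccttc
Cdh26 site, chr2:178542215-178542286, plus strand: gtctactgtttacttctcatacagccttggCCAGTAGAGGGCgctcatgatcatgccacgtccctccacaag
Cdh26 site, chr2:178665152-178665223, minus strand: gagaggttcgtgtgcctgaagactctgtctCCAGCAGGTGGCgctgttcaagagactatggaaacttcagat
Cdh26 site, chr2:178668611-178668682, minus strand: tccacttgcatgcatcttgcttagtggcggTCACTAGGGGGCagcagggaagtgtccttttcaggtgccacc
Cdh4 site, chr2:179193961-179194032, minus strand: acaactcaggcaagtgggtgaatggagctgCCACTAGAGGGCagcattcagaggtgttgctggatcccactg

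The leftmost of these reached 150.4 and 172 in replicates 1 and 2, and the next 2 had 25.7 and 16.7, and 83.4 and 87.2. On the minus strand the 3 sites had 191 and 157, 87.9 and 79.4, and 132 and 118. The second site was weak in both replicates, and the others lay above the medians of 57.1 and 52.8.

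Sites were shared unevenly between intervals. Of 18883 intervals between protein-coding genes, 3094 held at least 1 of the sites, and 44 held 10 or more, with 506 sites among them. Density was 20.4 per Mb between divergent genes, 24.0 between convergent genes and 21 between genes in tandem. The core was held by 53.2%, 52.8% and 50.7% of the sites in the same 3 settings, with overlapping intervals. Among named genes, the interval with the most sites ran between Irf2bp2, which encodes a transcriptional corepressor, and Tomm20, a subunit of the mitochondrial import receptor, with 16 sites in 337 kb and a core at 1 of them. The median signal there was 23.6 in replicate 1 and 18.3 in replicate 2, with a highest value of 64.5 and 55.6. Between Opa1, a mitochondrial fusion gene, and Hes1, a target of Notch, 15 sites included 3 with a core, and the medians were 19.4 and 16.7.

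Other crowded intervals were stronger and held more cores. Between Haao and Zfp36l2, 14 sites included 6 with a core, all on the plus strand, and signals ran between 10.2 and 239.9 in replicate 1 and between 8.39 and 219 in replicate 2. Between Lrrc74a and Irf2bpl, 13 sites lay in only 117 kb, 8 with a core, and signals ran up to 289 and 262. That interval had 204 sites per Mb of sequence meeting the rule, against 21.4 over the group. The intervals Mtx2 to Hnrnpa3, Stt3b to Gadl1 and Sdk2 to Rpl38 held 13 sites each, with 4, 6 and 7 cores. The interval between Zfp326 and Barhl2 held 12 with 7 cores, 6 of them on the plus strand, and that between Ubl3 and Katnal1 12 with 7 cores.

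A set of sites upstream of Gnaz, which encodes a G protein alpha subunit, is shown as an array of cores. All 12 sites nearest to Gnaz lay upstream of it, 11 of them within 19.9 kb of sequence, and 9 held a core, 3 on the plus and 6 on the minus strand. The 5 strongest with a core are printed on the strand of the core.
Gnaz site, chr10:74921024-74921095, minus strand: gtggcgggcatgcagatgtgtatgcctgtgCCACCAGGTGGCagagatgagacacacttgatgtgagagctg
Gnaz site, chr10:74937144-74937215, plus strand: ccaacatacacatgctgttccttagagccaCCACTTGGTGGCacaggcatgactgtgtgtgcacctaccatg
Gnaz site, chr10:74848521-74848592, minus strand: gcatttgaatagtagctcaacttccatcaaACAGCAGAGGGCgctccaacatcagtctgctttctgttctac
Gnaz site, chr10:74925408-74925479, minus strand: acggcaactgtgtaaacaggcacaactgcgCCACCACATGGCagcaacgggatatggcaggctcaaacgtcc
Gnaz site, chr10:74929703-74929774, minus strand: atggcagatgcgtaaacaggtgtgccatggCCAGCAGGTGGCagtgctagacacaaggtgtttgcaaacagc

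The first of these reached 223 and 227 in replicates 1 and 2, the second 165 and 144, the third 113 and 100.8, the fourth 107 and 95.8, and the fifth 62.7 and 68.4. The 60 bases around the core were identical at a median of 29.2% of positions between pairs of the 9 sites (lowest 13.3%, highest 48.3%). Among the 17 sites with a core in the 20 strongest, the median was 28.3% (lowest 15%, highest 45%). Bases were compared at fixed distances from the core without gaps, so the values cannot tell whether the sites are diverged copies.

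By gene, 3647 of 21646 protein-coding genes, or 16.8%, were nearest to at least 1 of the sites. Of these, 1766 had 1 site and 329 had 5 or more, and the 329 took up 2066 sites, 26.4% of the group. The highest count, 17, belonged to a gene known only by a predicted name. Among named genes, Zfp36l1, which encodes a protein that promotes mRNA decay, and Irf2bp2 had 13 sites each. Those of Zfp36l1 included 4 with a core and reached 204 in replicate 1 and 189.8 in replicate 2. None of the 13 at Irf2bp2 had a core, and the strongest had 64.5 and 55.6. Gnaz and Stim2, a calcium sensor of the endoplasmic reticulum, had 12 each. Hnrnpa3, Rasgrp1, Foxa2, Map3k7, Ly86 and Kcna5 had 11 each, with between 2 (Hnrnpa3) and 8 (Kcna5) cores.

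Gene lists were then set beside this background. How often a gene is nearest to a site depends on how much intergenic sequence lies beside it, so each list is given by its share of genes and by sites per Mb of sequence meeting the rule. Among 40 genes of lung development, 30 (75%) were nearest to at least 1 site, with 76 sites in all. They had 94.8 kb of such sequence per gene, against 16.8 kb over all protein-coding genes, and 20.04 sites per Mb, against 21.5. Among 40 homeobox developmental regulators the count was 27 (67.5%), with 106 kb per gene and 12.7 sites per Mb. Lung mesenchyme genes counted 14 of 25 (56.0%) with 29.2 sites per Mb, endothelium genes 8 of 20 with 37.8 per Mb on 26 sites, and lung epithelium genes 7 of 28 (25%) with 34.2 per Mb on 14 sites. The median gene of the lung development, lung mesenchyme and homeobox lists had 1 site, and the median over all protein-coding genes was 0.

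Lists of other kinds fell on either side. Sox genes counted 9 of 19 with 13.4 sites per Mb, and forkhead genes 16 of 44 with 33.1 per Mb. Neuronal adhesion genes counted 11 of 40 although they had 145 kb of sequence per gene, the most of the 16 lists, and had 2.58 sites per Mb on 15 sites. Neuron genes counted 5 of 20 with 9.68 per Mb, and heart and muscle genes 6 of 20 with 12.8 per Mb. Liver genes counted 3 of 20 (15%), ribosomal protein genes 11 of 79 (13.9%) and C2H2 zinc finger Zfp genes 45 of 365 (12.3%). The Wilson intervals for liver (5.24% to 36.0%) and ribosomal protein genes (7.96% to 23.2%) included the 16.8% of all genes. That for the Zfp genes (9.34% to 16.1%) lay below it. The densities of the 3 lists, 32.7, 30.3 and 25.6 sites per Mb on 4, 27 and 120 sites, lay above 21.5. They were near those of the lung epithelium and mesenchyme lists. No interval was taken for these densities. Blood and immune genes counted 1 of 21 with 5.20 per Mb on 1 site. Keratins counted 1 of 49, with 346 per Mb, a value that rests on 2 sites in 0.00579 Mb. Olfactory receptor genes counted 16 of 1091, or 1.47%, but only 12.8% of them had any sequence meeting the rule, and beside those the density was 17.8 per Mb. The part of gene spacing in these shares was not tested further.

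**Figure D5:**
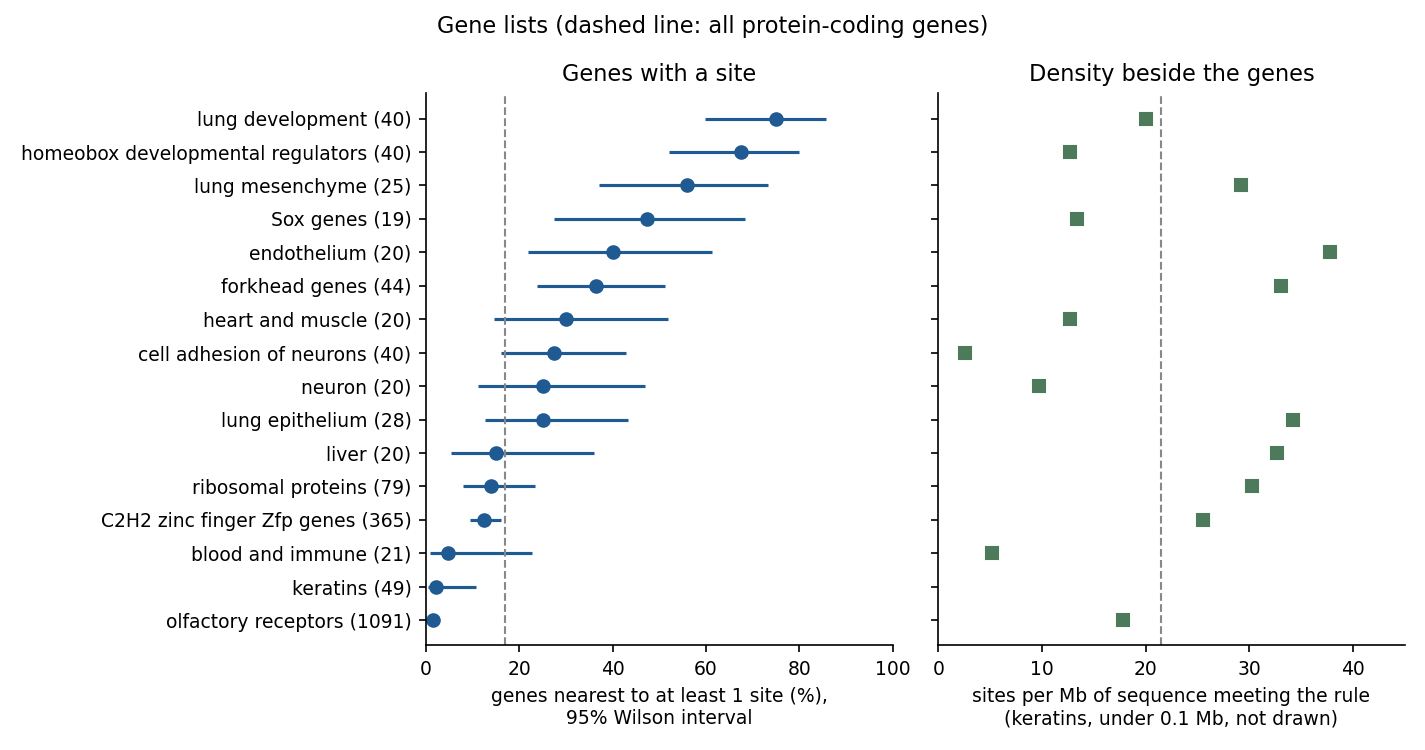
Gene lists and the intergenic CTCF sites. Left, the percent of genes of each list that are nearest to at least 1 site, with 95% Wilson intervals and the number of genes in brackets. Right, sites per Mb of sequence that meets the rule beside those genes. Dashed lines are all protein-coding genes (16.8% and 21.5 per Mb). Lung development and homeobox lists have the highest shares but densities of 20.04 and 12.7 per Mb.

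Foxa2, a forkhead factor of endoderm and airway, had 11 sites, the most of the lung development list, 7 upstream and 4 downstream and 6 of them with a core. Their signals ran between 6.82 and 182 in replicate 1 and between 14.1 and 182 in replicate 2. The strongest, chr2:148082362-148082596, lay 35.5 kb upstream and had 182 in both replicates, but its best match to the core had 3 mismatches. The next, 150.1 kb downstream, had 176 and 162, also with 3 mismatches. Tcf21, a factor of lung mesenchyme, had 6 sites with signals up to 123 and 128. Gata6, a factor of endoderm, had 6 sites, of which none passed 14.5 in replicate 1 or 16.5 in replicate 2.

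Among the cell type lists, Cdh5 had 7 sites, all upstream, with signals up to 236 and 244. Kdr, a receptor of vascular growth factor, had 5 sites up to 181 and 170.0, and Cldn5, a tight junction gene of endothelium, had 5 that stayed at or below 54.4 and 35.6. Col1a2, a fibrillar collagen gene, had 6 sites, all between 80.9 and 145 in replicate 1 and between 70.8 and 143 in replicate 2. Pdgfra, the receptor of mesenchymal progenitors, had 6 sites with 10.2 to 129 and 12.7 to 136. In the epithelial list Lpcat1, an enzyme of surfactant lipid synthesis, had 5 sites up to 207 and 169, Trp63, a factor of basal cells, 2 up to 79.5 and 84.8, and Sftpb, a surfactant protein gene, 2, one of which had 58.8 and 32.7. The other Sftpb site had no peak within 100 bp of its summit in either replicate. All 6 sites beside Col1a2 thus lay above the medians of 57.1 and 52.8, while those beside Foxa2 lay on both sides of them.

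In the other lists the genes with the most sites were few. Barhl2 had 7 sites with 4 cores, Irx5 6 and Irx6 5 among the homeobox genes. Sox11 had 4 sites, none above 41.2 in replicate 1 or 77.7 in replicate 2, and Sox17 and Sox13 3 each. Foxk1 had 8 sites up to 211 and 208, and Foxo6 5 up to 255 and 249.6. Dlx2 had 3, Neurod1 and Cntnap2 2 each, Cdh4 3, and Robo1 and Slitrk5 2 each, of which the Slitrk5 sites stayed at or below 11.9 and 9.46. Ptprc, the pan-leukocyte marker, had 1 site of 162 and 141, the only one in the blood and immune list. With either replicate left out, with the conservative list or with repeat-masked summits kept, 2 genes of that list were nearest to a site. Apob had 2 sites and Cyp7a1 and Cps1 1 each, Myf5 and Hand1 2 each and Mef2c 1, the last with 174 and 198. Of the 2 Hand1 sites, 1 had no peak within 100 bp of its summit in either replicate. Zfp516, Zfp536 and Zfp706 had 8 each, Rpl14 7, Rpl38 5, Rps29 3, Olfr291 and Olfr1505 4 each, Olfr267 3, and Krt20 2.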

How the data were processed

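The files were CTCF ChIP-seq peak lists of P0 mouse lung in mm10, 1 group of 2 replicates. The deposited lists give for each peak a summit offset, a signal value as the authors' caller wrote it and a −log10 q-value as deposited. With the aligner, the peak caller, its settings, the threshold of the irreproducible discovery rate (IDR) and the scaling of the signal all not given in the sources used here, signals were compared within these lists only. The lists carry no read counts, so depth is unknown. The replicate lists and the pooled list hold 300000 peaks each, and the deposited optimal list is, by its name, thresholded on IDR. In the optimal list 10 peaks on other contigs were left out.

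A site's signal in a replicate is that of the highest replicate peak within 100 bp of its summit, and its rank in the list is by the pooled signal, with a median of 76.2. Genes are those of GENCODE M21, and sequence and soft-masking come from NCBI RefSeq GRCm38.p6. The core was searched with up to 1 mismatch within 50 bp of the summit, with windows 1000 bp away as background. Shares carry 95% Wilson intervals and differences 95% Newcombe intervals, which cover counting error only. A difference was called where its interval excluded 0. Leaving out a replicate meant taking the 64732 highest peaks of the other. Named genes are, for each list, the 3 with the most sites, the 10 named genes with the most sites of all, the 10 intervals with the most and the 20 strongest sites. The members and lists were chosen with earlier results of these data known. Python 3.11.15, numpy 2.4.6, pandas 2.3.3 and matplotlib 3.10.9 were used, and the scripts were tested on simulated data.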

Additional observations from a re-analysis of the deposited data

Results flagged for a closer look

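A signal was present in peaks that the comparisons above do not use. The pooled list holds 25256 peaks at positions that meet the same rule but lie over 2000 bp from any site of either IDR list. Of these, 1371 held the 12-bp CTCF core, or 5.43% (95% Wilson interval 5.16% to 5.71%), against 0.687% of windows 1000 bp away, a difference of 4.74 points (4.46 to 5.04). Their median pooled signal was 7.15, and 9.96 for those with a core. Of 1354 of these cores in an interval between protein-coding genes, 49.5% pointed inward (46.8% to 52.1%), and the cause was not tested.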

How the results depend on the processing

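For the results that answer a comparison, each counted once per alternative, 135 values stayed, 29 moved, 4 no longer passed and 2 changed sign. A count stayed when it changed by at most 1.5 times, and a share or density when it lay within its main interval. A difference, or a share set against 50%, stayed when its side and its call were unchanged, and its size was not compared. Each alternative list used its own median, and as many of the highest replicate peaks as it has sites. With the upper 50% of the list by signal there were 4527 sites, all above the median of the whole list by construction. The core differences from the 1-25 kb sites (-0.418 points) and the sites in genes (1.74 points) no longer excluded 0. Density was 12.4 per Mb, the core share 65.4%, the share above this list's median 54.9%, the both-replicate share 96.1% and the gene share 12.5%. With a start over 50 kb away these were 4715 sites, 17.3 per Mb, 50.5%, 55.0% above the median and 10.3% of genes. With a start at most 100 kb away density was 27.9, the share above the median 60.7%, both replicates 87.7%, the same-strand share 53.6% and the gene share 14.5%. Keeping repeat-masked summits gave 15.99 per Mb, 54.7%, 53.3%, 85.6% and 18.5% of genes. The conservative list gave 20.7 per Mb and 89.4% in both replicates, and matching within 50 bp gave 86.1%. With exact cores the core share was 17.2% and the same-strand share 55.8%, whose interval included 50%, and the difference from repeat-masked sites turned to 8.48 points. With up to 2 mismatches the share was 79.9% and the difference from sites over 250 kb away -2.11 points, with 0 inside the interval. Searching 25 bp around the summit gave 47.5%. Excluding protein-coding gene bodies only gave 18.3% of genes. Leaving out a replicate gave 89.2% to 89.3% with a high peak in both, but those sites are the highest peaks of the other replicate by construction, so the value tests 1 replicate only and says nothing of stability. For the counts per named gene and list, again once per alternative, 174 values stayed and 34 moved by over 1.5 times. Causes were not tested, beyond the smaller number of sites that some alternatives take by construction. The alternatives for the differences and for the intervals were chosen after seeing the data. No paired analysis was possible because there was 1 group. Both libraries share a donor, and depth, the antibody control and binding by cell type were not analysed here.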
